A study of Mus musculus with 24 samples.

Results

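Type I interferon-stimulated genes (ISGs) were followed through 24 mouse prostate tumors. The set held 39 genes, chosen by symbol as established targets of type I interferon and found by Ensembl identifier among the 55401 genes of the count table, by a rule that used no measured value, although earlier results of these data were known when they were chosen. Type I interferons bind a receptor that activates the kinases Jak1 and Tyk2, and these phosphorylate transcription factors of the STAT family, among them Stat2. With Irf9 the phosphorylated factors form the complex ISGF3, which binds the interferon-stimulated response element (ISRE) in the promoters of ISGs. The products sense foreign nucleic acid, block viral replication or set the length of the response. Interleukin-27 (IL-27), the cytokine given here, signals through its own receptor to factors of the STAT family, among them Stat3.

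All tumors grew in male C57/BL6 mice aged 8 to 10 weeks. The subcutaneous tumors were of TC2Ras cells, a mouse prostate cancer line that carries activated Ras, in mice given an IL-27 plasmid or the empty vector in muscle with ultrasound (sonoporation), and were taken a week after implantation (n = 2 for each group). The intratibial tumors were of the luciferase-marked line TC2Ras-Luc in bone, and were taken on day 14 (n = 3 for each group) or at the end of the study (EOS, n = 2 for each group). Cabozantinib or its vehicle was given until day 14, and EOS mice were taken later, each as it reached a humane endpoint. EOS tumors had therefore been without the drug for a time that the labels do not give, and time and the end of dosing cannot be told apart. Their groups were the empty vector with the PvP vehicle (control), the IL-27 plasmid with vehicle (IL-27), the empty vector with cabozantinib (cabo), an inhibitor of several receptor tyrosine kinases including Met and the VEGF receptors, and the IL-27 plasmid with cabozantinib (IL-27+cabo). The line was implanted in every mouse, every mouse received a plasmid and sonoporation, and IL-27 was made in muscle rather than by the tumor cells. The subcutaneous and the intratibial libraries carry different prefixes in their labels, which do not say what the prefix stands for, so site and prefix cannot be told apart. Each intratibial library came from a separate mouse by its number. The subcutaneous labels number the tumor and not the mouse, and cells were implanted in both flanks, so the tumors of a group may share a mouse, and the p-values measure only the spread between these tumors. Every library came from a section of a tumor with all its cells, so a lower level can be fewer cells that express a gene or less RNA in each, and these cannot be told apart.

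Counts on genes ranged from 69240429 to 83782258 in the subcutaneous libraries and from 63729005 to 75305934 in the intratibial libraries. All 39 genes passed the filter on low counts at both sites, and the smallest count of any of them in any library was 24. Levels below are CPM, the counts of a gene scaled to a common library total with the TMM method of edgeR, at each site apart. One library stood apart, that of mouse 20 in the day 14 IL-27+cabo group, which had the lowest scaling factor (0.838) and the fewest genes detected (21269 against up to 24028), so results of that group are given with and without it. The 8 markers of prostate epithelium and the tumor line summed to between 62.6 and 415 CPM. Near-identical copies share reads, so the levels of the pairs Ifit3 and Ifit3b, and Oas1a and Oas1g, are uncertain, as are those of the 14 genes of the set that overlap another gene, among them Parp9 and Dtx3l, which overlap each other. By position, 6 genes of the set lie on chromosome 5 (the OAS genes, with Oasl1 and Oasl2 apart from the other 4), 6 on chromosome 16 and 4 on chromosome 19 (the IFIT cluster). Mice of this strain carry a defective Mx1 allele, so the Mx1 level is that of its transcript only.

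Many promoters of ISGs carry the sequence to which ISGF3 binds, and those of genes that the results turn on are shown for this reason. RefSeq promoters (assembly GRCm38.p6, from 250 bases before to 50 bases after the start) were found for 29 of the 39 genes. The letters GAAANNGAAA, read on both strands, were taken as the core of the ISRE. They stood in a promoter of 14 of these 29 genes (48.3%), against 1079 of all 27025 genes (3.99%). In the sequences below, each 5′ to 3′ on the strand of its gene, capitals mark GAAANNGAAA or its reverse complement TTTCNNTTTC. Isg15 (chr4:156200769-156201068, minus strand) held 3 overlapping matches, of which the first began 78 bases before the start. Ifit1 (chr19:34640639-34640938, plus strand) held 2, at 104 and 85 bases before the start, and Ifit3 (chr19:34583279-34583578, plus strand) held 2, at 156 and 122 bases before it. Rsad2 (chr12:26456403-26456702, minus strand) held 1, at 120 bases before the start. Samd9l (chr6:3399522-3399821, minus strand) is shown as a gene without these letters in the window.
Isg15: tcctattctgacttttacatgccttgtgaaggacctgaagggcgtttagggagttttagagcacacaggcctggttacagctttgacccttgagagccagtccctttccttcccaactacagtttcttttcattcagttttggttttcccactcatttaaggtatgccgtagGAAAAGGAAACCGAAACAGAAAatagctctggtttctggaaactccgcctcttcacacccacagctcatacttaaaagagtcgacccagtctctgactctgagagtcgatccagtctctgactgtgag
Ifit1: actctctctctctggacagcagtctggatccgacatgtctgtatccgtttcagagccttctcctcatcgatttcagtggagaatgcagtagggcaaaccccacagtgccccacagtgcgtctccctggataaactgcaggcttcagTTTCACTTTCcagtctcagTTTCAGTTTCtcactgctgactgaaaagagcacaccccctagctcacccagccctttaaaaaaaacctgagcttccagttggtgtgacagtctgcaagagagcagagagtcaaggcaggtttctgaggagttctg
Ifit3: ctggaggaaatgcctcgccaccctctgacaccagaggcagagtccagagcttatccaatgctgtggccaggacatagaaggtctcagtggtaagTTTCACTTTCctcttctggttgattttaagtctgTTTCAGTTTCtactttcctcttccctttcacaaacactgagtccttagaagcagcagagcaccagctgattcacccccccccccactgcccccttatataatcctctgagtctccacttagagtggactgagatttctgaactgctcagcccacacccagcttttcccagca
Rsad2: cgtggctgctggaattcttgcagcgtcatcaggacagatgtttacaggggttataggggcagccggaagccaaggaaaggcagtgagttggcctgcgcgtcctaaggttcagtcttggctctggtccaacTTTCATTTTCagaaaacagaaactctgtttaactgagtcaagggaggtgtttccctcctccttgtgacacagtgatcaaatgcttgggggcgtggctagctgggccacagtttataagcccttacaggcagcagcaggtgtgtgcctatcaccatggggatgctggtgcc
Samd9l: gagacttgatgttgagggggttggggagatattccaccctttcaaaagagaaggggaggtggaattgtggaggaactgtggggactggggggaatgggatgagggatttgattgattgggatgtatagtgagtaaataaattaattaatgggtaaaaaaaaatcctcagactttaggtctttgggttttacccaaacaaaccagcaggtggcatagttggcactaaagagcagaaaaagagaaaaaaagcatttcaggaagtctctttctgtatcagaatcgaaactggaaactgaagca

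The genes differed widely in level. Per kilobase of exon, which allows genes to be compared, the highest in day 14 control tumors was Lgals3bp, a secreted glycoprotein, at 42.6 ± 11.3 CPM per kilobase (SD, n = 3). Bst2, the protein that tethers budding viruses to the cell, followed at 31.0 ± 4.35, and Isg15, the ubiquitin-like modifier, at 20.6 ± 7.55 CPM per kilobase (SD, n = 3). Lgals3bp and Bst2 differed by about the SD of Lgals3bp, whereas Bst2 and Isg15 were apart by more than either SD. The lowest was Oas2, one of the synthetases that make the RNase L activator 2′-5′ oligoadenylate, at 1.25 ± 0.430 CPM per kilobase, next to Mx2 at 1.55 ± 0.369 and the transcript of Mx1 at 1.63 ± 0.696 (SD, n = 3), and these differed by less than their spread. The factors of ISGF3 were in between, with Stat2 at 4.33 ± 0.612 and Irf9 at 5.72 ± 0.281 CPM per kilobase, below Irf7, the factor that amplifies interferon production, at 10.41 ± 3.79 (SD, n = 3).

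The interferons themselves were close to absent. Of 20 type I and type III interferon genes examined, 16 had no count in any library, which allows up to 3 counts in each. Ifnb1, the interferon beta gene, had 25 counts (0.317 CPM) in subcutaneous IL-27 tumor 1, none in the other subcutaneous IL-27 tumor or the subcutaneous controls, and at most 9 in an intratibial library. The receptor gene Ifnar1, by contrast, was between 96.4 and 139 CPM in the mean of every group.

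As a summary for each tumor, the mean log2 CPM over the 39 genes was taken, on which a difference of 1 is a doubling. In the subcutaneous controls it was 3.68 and 4.08, and in the subcutaneous IL-27 tumors 4.13 and 4.97, so these groups did not overlap. On day 14 the control tumors had 4.34, 4.58 and 3.86 and the IL-27 tumors 2.95, 2.51 and 3.93, where the highest IL-27 tumor (mouse 8) lay above the lowest control (mouse 7). The day 14 cabo tumors had 4.54, 5.17 and 4.63, and the day 14 IL-27+cabo tumors 4.56, 5.29 and 4.57, so both overlapped the control tumors narrowly and each other widely. At EOS the values were 2.62 and 3.55 in controls, 2.39 and 2.97 with IL-27, 4.24 and 3.27 with cabo, and 4.36 and 5.79 with IL-27+cabo. Both EOS IL-27+cabo tumors lay above all other EOS tumors, and mouse 28 of that group was the highest intratibial tumor for 32 of the 39 genes. The lowest intratibial tumor was mouse 10 (EOS, IL-27) for 16 genes and mouse 6 (day 14, IL-27) for 13.

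**Figure D1:**
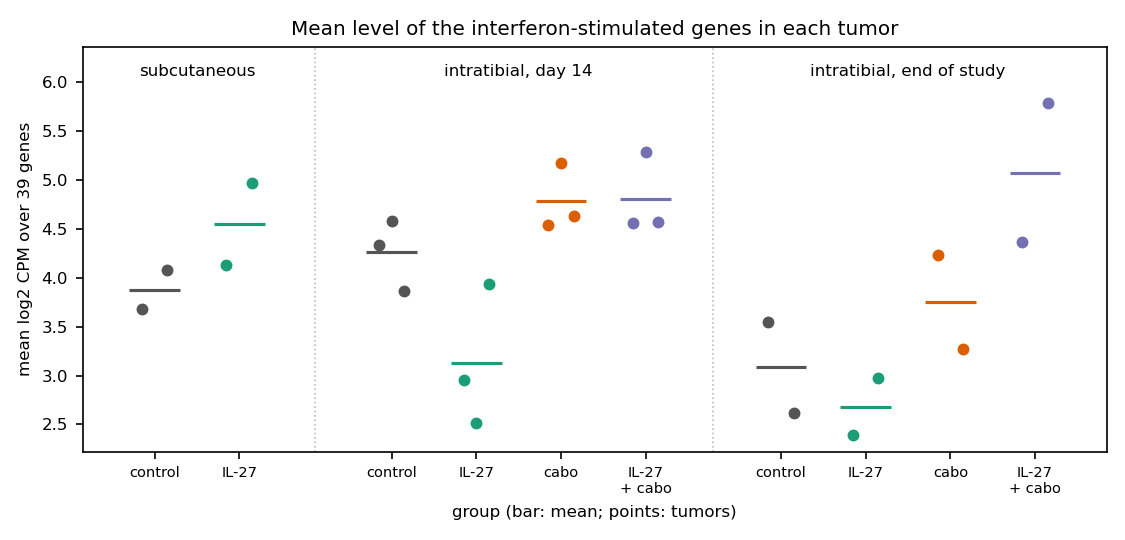
Mean log2 CPM over the 39 interferon-stimulated genes (vertical axis) in each tumor (points) by group (horizontal axis), with bars at group means. Subcutaneous and intratibial libraries were normalized apart, so levels cannot be compared across the first dotted line. The day 14 IL-27 tumors lie between 2.51 and 3.93, the day 14 cabo and IL-27+cabo tumors between 4.54 and 5.29, and the EOS IL-27+cabo tumors at 4.36 and 5.79.

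In the subcutaneous tumors the question was what IL-27 changed at a site outside bone. Most ISGs were higher with IL-27, with 29 of the 39 higher (51.2% of all genes) and 10 lower (48.8%), and 19 passed the test. The IFIT genes, whose products bind viral RNA that lacks host cap methylation, all rose: Ifit3 from 19.1 and 18.2 CPM in the control tumors to 51.4 and 102 CPM, and its near-copy Ifit3b from 5.17 and 5.96 to 17.2 and 27.6. The Mx1 transcript rose from 4.88 and 5.66 CPM to 29.3 and 41.8, and Rsad2, which encodes the antiviral enzyme viperin, from 5.77 and 12.7 to 34.5 and 53.4. Trim30a, a TRIM protein that restrains inflammatory signaling, rose from 14.4 and 32.2 to 82.5 and 150 CPM. Ifih1, which encodes the double-stranded RNA sensor Mda5, rose from 15 and 23.1 to 50.5 and 74.6. For each of these the groups did not overlap.

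By edgeR's quasi-likelihood test with Benjamini-Hochberg adjustment over 19360 genes, 15 of the 39 genes were higher and 4 lower at an adjusted p under 0.05, against 3.52% of all genes tested that were higher and 16.5% that were lower. The log2 fold change was 2.76 for Mx1 (standard error, SE, 0.391, adjusted p = 0.00394), 2.25 for Rsad2 (0.493, adjusted p = 0.0202), 2.04 for Ifit3 (0.412, adjusted p = 0.0149) and 2.01 for Ifit3b (0.417, adjusted p = 0.0165). It was 2.32 for Trim30a (SE 0.509, adjusted p = 0.0203) and 1.72 for Ifih1 (0.385, adjusted p = 0.022). By role, the calls higher took in all 4 IFIT genes, 2 of 6 OAS genes, 1 of 4 sensors, 1 of 2 MX genes, 1 of 4 genes of the PARP and Dtx3l group, 1 of 3 genes of the Isg15 system, 3 of 6 other antiviral effectors and 2 of 7 other induced genes. None of the transcription factors passed: Stat2 had 16.5 and 32.6 CPM in controls and 23.6 and 39.2 with IL-27, and Irf9 had 29.9 and 29.5 against 30.3 and 54.8. Irf7 had 38.0 and 26.1 CPM in controls and 11.0 and 37.6 with IL-27, groups that overlapped. The median log2 fold change of the set was 1.19, against 0.04 over all genes tested, and groups were without overlap and higher for 26 of the set, against 31.9% of all genes, and lower for 7, against 35.0%.

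The 4 genes called lower were Isg20, Ifi35, Oasl1 and Isg15. Isg20, a 3′ exonuclease of RNA, was at 27.9 and 13.5 CPM in the control tumors and at 1.08 and 1.82 with IL-27. Its log2 fold change was -3.84 (SE 0.564, adjusted p = 0.00447). Ifi35, an interferon-induced leucine zipper protein, went from 29.0 and 16.7 to 2.70 and 3.06 CPM (log2 fold change -2.99, SE 0.453, adjusted p = 0.00496). Oasl1, known to hold back translation of Irf7, went from 11.2 and 9.03 to 1.61 and 2.94 CPM (log2 fold change -2.15, SE 0.502, adjusted p = 0.0255). Isg15 went from 6.36 and 5.05 CPM to 1.28 and 1.97, a change of -1.81 on the log2 scale (SE 0.514) with an adjusted p of 0.0497, at the threshold. The groups did not overlap for any of these.

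The transcripts of these 4 genes had a GC content between 52.8% and 57.4%, and the fold changes of the whole subcutaneous comparison followed GC content. Over all genes tested the median log2 fold change was 1.01 where GC content was below 40%, 0.76 from 40% to 45%, 0.31 from 45% to 50%, -0.59 from 50% to 55% and -2.33 from 55%. Within these intervals the medians of the set were 1.57, 1.72, 1.61, 0.435 and -1.17, each above that of all genes. In the same order 2 of 2, 7 of 7, 11 of 11, 10 of 14 and 4 of 5 genes of the set lay above the median of all genes. After each library was corrected for GC content and transcript length, 5 of the 39 genes passed, against 8.18% of all genes: Mx1, Rsad2, Ifit3 and Oas2 higher and Ifi35 lower, of which Oas2 was named after its value was seen. The log2 fold change of Oasl1 was then -0.16 (adjusted p = 0.883), that of Isg20 -1.31 (adjusted p = 0.102) that of Isg15 -0.98 (adjusted p = 0.265) and that of Ifih1 0.81 (adjusted p = 0.172). Mx1 kept 2.36 (adjusted p = 0.011) and Rsad2 1.58 (adjusted p = 0.0477). Markers of other cells also moved with IL-27 here. The 12 skeletal muscle markers, 10 of them called higher, summed to 1159 and 385 CPM against 12.3 and 2.82 in the control tumors. The 10 markers of neutrophils and marrow myeloid cells, 5 of them called higher, summed to between 38.4 and 39.9 against 1.53 to 2.79, and the 6 T cell markers, 2 called higher, to between 19.8 and 26.6 against 6.91 to 7.70. The 4 markers of plasmacytoid dendritic cells, a main source of type I interferon, had none called and summed to between 3.76 and 3.83 CPM against 1.38 to 2.39, and the 5 NK cell markers, 2 called higher and 1 lower, to between 34.1 and 62.7 against 16.5 to 18.2. Sums of B and plasma cell markers (3.08 and 67.8 against 1.01 and 2.95) and of endothelial markers (366.0 and 779 against 300 and 365.9) were higher too, while those of prostate epithelium and the tumor line were lower (62.6 and 95.7 against 97.1 and 148, 3 of 8 called lower). Of the 7 macrophage markers 4 were called lower, with sums that overlapped (942 and 1338 against 1210 and 1452), and their C1qa, C1qb and C1qc have a GC content from 57.4% to 59.5%. Their part in the result was not tested. The log2 fold change of Ifit3 was 2.094 without control tumor 1 and 1.454 without IL-27 tumor 2, and that of Isg15 was -1.619 and -2.165. Fewer genes of the set were called in these fits, which leave no spread between tumors in a group.

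**Figure D2:**
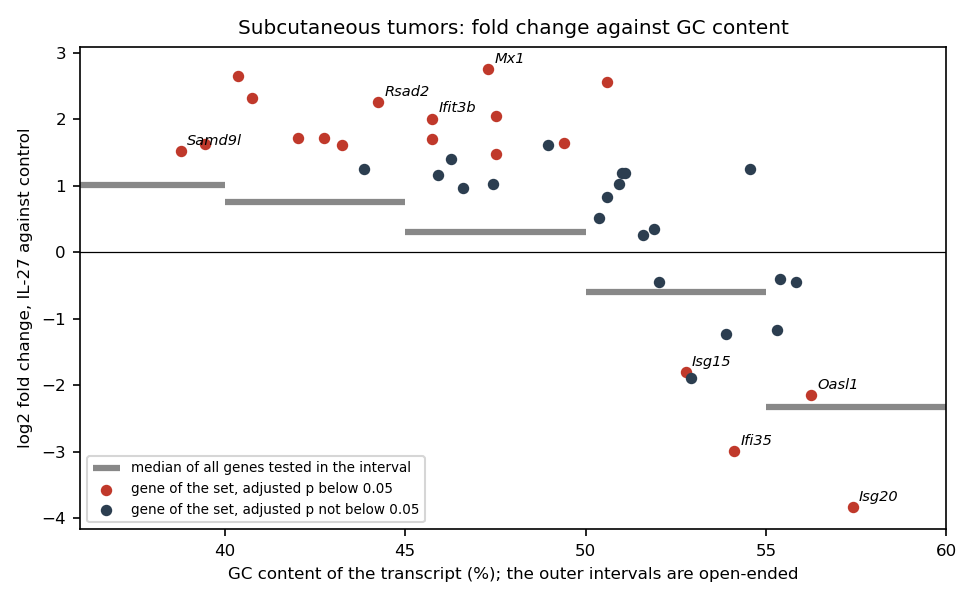
Log2 fold change of each of the 39 genes with IL-27 in subcutaneous tumors (vertical axis) against the GC content of its transcript in percent (horizontal axis), with grey bars for the median of all genes tested in each interval. Red points have an adjusted p below 0.05. The genes called lower (Isg20, Ifi35, Oasl1 and Isg15) lie above 50% GC, where the median of all genes is -0.59 from 50% to 55% (Ifi35 and Isg15) and -2.33 from 55% (Isg20 and Oasl1).

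In bone on day 14 the direction with IL-27 was the other way, without a call. All 39 genes had a lower fitted level in the IL-27 tumors than in control tumors, with a median log2 fold change of -1.001, against 46.4% of all genes that were lower and a median of 0.02 over them. Oas3, the synthetase for long oligoadenylates, had 11.4, 18.0 and 7.63 CPM in control tumors (mice 3, 5 and 7) and 2.36, 1.76 and 5.29 in IL-27 tumors (mice 4, 6 and 8). Rsad2 had 26.7, 36.9 and 27.5 CPM against 10.5, 7.41 and 19, and Dtx3l, the ubiquitin ligase that partners Parp9, had 29.3, 33.6 and 22.7 against 16.9, 11.6 and 18.1. In these genes every IL-27 tumor lay below every control tumor, and mouse 8 was the nearest to the controls. Isg15 had 14.2, 21.8 and 10.6 CPM in control tumors and 4.94, 2.99 and 13.7 with IL-27, where mouse 8 overlapped them.

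Neither the 39 genes nor any other of the 18519 tested reached an adjusted p of 0.05 with edgeR (0% of all genes), and DESeq2 called 1 of the set (Oas3) and 0.0104% of all genes. At an unadjusted p under 0.05, 24 of the 39 were lower, against 1.85% of all genes, and 13 of the 39 were lower without overlap, against 4.73%. On leaving out one tumor at a time all 39 stayed lower, with a median from -1.45 (without mouse 8) to -0.68 (without mouse 6). The number at an unadjusted p under 0.05 was then 8 without control mouse 5, 11 without mouse 6, 12 without control mouse 3, 14 without mouse 4, 26 without control mouse 7 and 36 without mouse 8. With the muscle score as a covariate the median was -1.42, with all 39 lower and 34 at such a p. On the log2 scale the change was -1.96 for Oas3 (SE 0.475), -1.29 for Rsad2 (0.336), -0.86 for Dtx3l (0.226) and -1.10 for Isg15 (0.539), each with an adjusted p of 1 by edgeR. Within the IL-27 group, mouse 8 also had the highest sums of the 7 macrophage markers (832 CPM, against 360 and 403) and of the 12 muscle markers (2003 CPM, against 27.1 and 65.7). Control tumors had 509 to 1163 CPM of macrophage markers and 4.79 to 137 of muscle markers, and T cell markers summed to 42.3, 5.84 and 9.04 CPM in the IL-27 tumors of mice 4, 6 and 8, against 42.8 to 48.0 in control tumors. NK cell markers (7.45 to 13.3 CPM against 16.6 to 24.5) and fibroblast and bone markers (4554 to 5209 against 6021 to 7294) were lower without overlap as well. None of these lists had a call, as no gene tested did. The part of cells other than muscle in the result was not tested.

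Whether IL-27 acted on the set differently at the 2 sites was tested as an interaction, which was added after seeing the data. The change with IL-27 was higher in subcutaneous than in day 14 tumors for 32 of the 39 genes (49.5% of all genes), with a median difference of 2.27 in log2 fold change, against -0.02 over 20977 genes. By edgeR, 23 of the 39 had an adjusted p under 0.05 with a higher change in subcutaneous tumors and 2 with a lower one, against 5.51% and 18.0% of all genes. Mx1 differed by 3.96 (SE 0.773, adjusted p = 0.00356), Rsad2 by 3.56 (0.63, adjusted p = 0.00189) and Ifih1 by 2.58 (0.456, adjusted p = 0.00188). Ifit2 differed by 2.46 (SE 0.421, adjusted p = 0.00153), Samd9l, a translation inhibitor that restricts poxviruses, by 2.27 (0.44, adjusted p = 0.00345) and Parp9 by 2.23 (0.44, adjusted p = 0.00376). The lower ones were Isg20, by -3.61 (SE 0.494, adjusted p = 0.000346), and Ifi35, by -2.75 (0.444, adjusted p = 0.00104). After correction for GC content and transcript length, 14 were called higher and 1 lower, against 10.1% of all genes called in either direction. The calls on Isg20 and Samd9l were lost, at -1.17 (adjusted p = 0.0843) and 1.02 (adjusted p = 0.105), while Ifi35 was at -1.43 (adjusted p = 0.0249), Ifih1 at 1.53 (adjusted p = 0.0411) and Ifit2 at 1.47 (adjusted p = 0.0238). Fewer genes of the set passed without subcutaneous control tumor 1, a fit that leaves no spread between tumors in that group. Site, label prefix, cell line label, time and the vehicle, which only the intratibial labels name, differed between the subcutaneous and day 14 tumors and cannot be told apart. The GC trend differed too, and was corrected for only in the fit with that correction.

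Cabozantinib alone came with somewhat higher ISGs in bone on day 14. Samd9l rose from 60.8, 64.2 and 45.5 CPM in control tumors to 98.3, 114 and 94.0 CPM in cabo tumors (mice 21, 25 and 27), and the groups were well apart. Its log2 fold change was 0.83 (SE 0.139, edgeR adjusted p = 0.0329), and it was the only one of the 39 to pass, against 1.20% of all genes called higher. Ddx58, which encodes the RNA sensor RIG-I, had 41.4, 50.7 and 34.2 CPM against 60.9, 84.9 and 62.6 (log2 fold change 0.70, SE 0.176, edgeR adjusted p = 0.0976). Oas2 had 6.26, 7.06 and 3.42 CPM against 12.8, 20.9 and 9.50 (log2 fold change 1.35, SE 0.349, edgeR adjusted p = 0.106). Both were also without overlap. In all, 37 of the 39 were higher (48.9% of all genes), the median of the log2 fold changes being 0.46 against -0.01 over all genes, 14 were higher at an unadjusted p under 0.05 (9.64% of all genes), and 12 were higher without overlap, against 14.9%. None of the set was lower without overlap, against 11.9% of all genes. Without mouse 25 the median was 0.27, and 6 had an unadjusted p under 0.05. That number was 8 without control mouse 7 and 21 without control mouse 5.

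The call on Samd9l was not stable. DESeq2 called 9 of the set, all higher, against 4.55% of all genes. The Samd9l call was lost without a filter (edgeR adjusted p = 0.0949), with all intratibial groups in one fit (adjusted p = 1), with the muscle score as a covariate (adjusted p = 0.672) and on leaving out any one tumor except control mouse 5 (adjusted p from 0.0553 to 0.128). Its log2 fold change stayed between 0.69 and 0.92 throughout. Muscle markers summed to between 1164 and 1776 CPM in the cabo tumors and between 4.79 and 137 in control tumors, with 3 of 12 called higher, and T cell markers to between 12.2 and 19.6 against 42.8 to 48.0, with 3 of 6 called lower. Sums were also lower without overlap for endothelial (137 to 152 against 177 to 289, 3 of 7 called lower), erythroid (13.9 to 29.3 against 51.9 to 238) and B and plasma cell markers (2.27 to 5.25 against 5.64 to 8.56). They were higher for fibroblast and bone (8831 to 9543 against 6021 to 7294, 1 of 6 called higher) and for the tumor line (145 to 177 against 118 to 142). With the muscle score as a covariate the median of the set was 0.14 and none had an unadjusted p under 0.05. The part of other cell types was not tested.

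**Figure D3:**
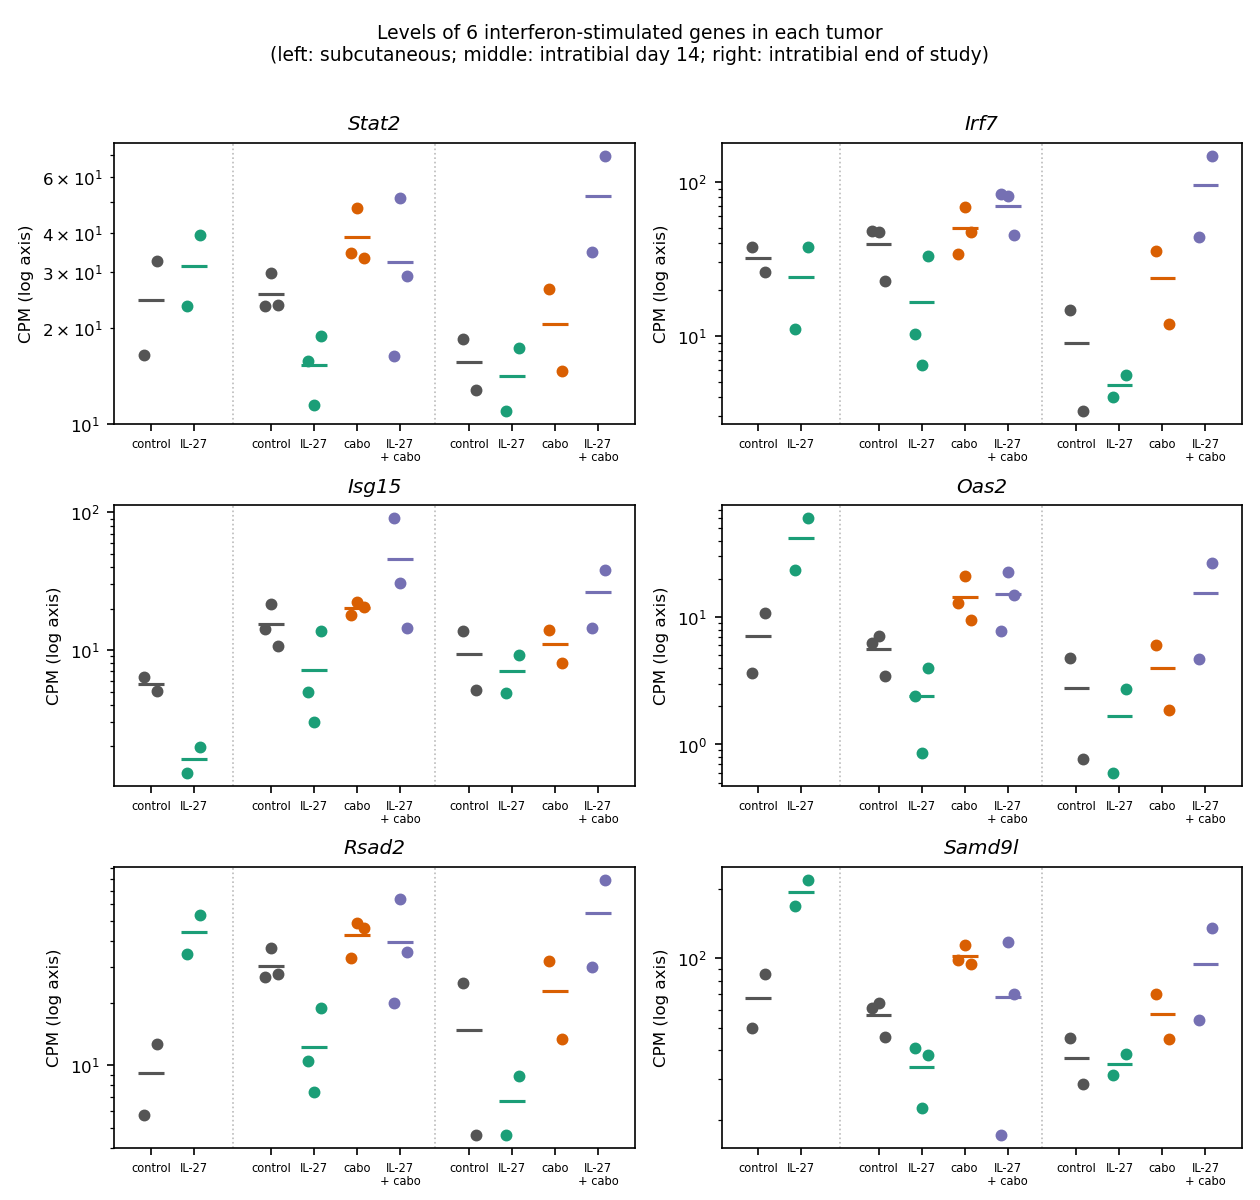
CPM on a log axis (vertical) of Stat2, Irf7, Isg15, Oas2, Rsad2 and Samd9l in each tumor (points) by group (horizontal), with bars at arithmetic means. Isg15 falls in subcutaneous IL-27 tumors while Oas2, Rsad2 and Samd9l rise there. On day 14 the tumor of mouse 20 (IL-27+cabo) is the highest point for Isg15 at 91.4 CPM and the lowest for Samd9l at 17.2 CPM.

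In the IL-27+cabo tumors of day 14 the set was at the level of the cabo tumors. Against control tumors, 38 of the 39 genes were higher (54.0% of all genes), and their median change was 0.62 on the log2 scale. Oas2 had 7.79, 22.6 and 15 CPM (mice 20, 22 and 24), above all control tumors. Xaf1, a proapoptotic partner of XIAP, had 28.3, 20.9 and 11.2 CPM against 9.85, 10.7 and 7.19 in control tumors, and Oasl1 had 40.7, 41.8 and 30.2 against 19.3, 28.7 and 20.5. The fold change on the log2 scale was 1.44 for Oas2 (SE 0.456, edgeR adjusted p = 0.536), 1.15 for Xaf1 (0.392, edgeR adjusted p = 0.609) and 0.74 for Oasl1 (0.265, edgeR adjusted p = 0.674). None of the 39 passed, against 0.0640% of all genes, 6 were higher at an unadjusted p under 0.05, against 4.23% of all genes, and 4 were without overlap and higher, against 7.49%. DESeq2 called none either. Without mouse 20, 39 were higher with a median of 0.67, 20 had an unadjusted p under 0.05, and still none passed, whereas the median was 0.17 without mouse 22 and 0.39 without control mouse 7. The number at such a p ranged from 0 (without control mouse 7) to 20 over the tumors left out. Muscle markers summed to between 1523 and 4384 CPM, against 4.79 to 137 in control tumors, with none of 12 called, and T cell markers to between 11.1 and 13.4 CPM against 42.8 to 48.0, with 1 of 6 called lower. Endothelial sums were lower (76 to 139 against 177 to 289) and tumor line sums higher (160 to 415 against 118 to 142), also without overlap. With the muscle score as a covariate the median was 0.25, with 29 of the 39 higher and none at an unadjusted p under 0.05. The part of other cells was not tested.

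Set directly against cabo alone, IL-27+cabo had about the same median level of the set. Of the 39 genes, 21 were higher (51.5% of all genes) and 18 lower, the median change being 0.04 on the log2 scale, and no gene was without overlap in either direction, against 5.48% of all genes higher and 7.01% lower. The lowest unadjusted p belonged to Ifi27l2a, a mitochondrial interferon-induced protein, Bst2 and Isg15. Ifi27l2a had 25.6, 5.94 and 3.96 CPM in the tumors of mice 20, 22 and 24 and 3.78, 4.43 and 3.57 with cabo alone. Bst2 had 135, 40.9 and 26.1 CPM against 22.3, 36.3 and 23.9, and Isg15 had 91.4, 30.6 and 14.6 against 18.1, 22.2 and 20.5. In each of them mouse 20 was the highest tumor by far, and the groups overlapped. The log2 fold changes were 1.65 (SE 0.728), 1.35 (0.641) and 1.23 (0.65), with an edgeR adjusted p of 0.788 for all 3. None of the set passed (0% of all genes), and none had an unadjusted p under 0.05. Without mouse 20 the median was 0.14 with 33 of 39 higher and none at an unadjusted p under 0.05, and the median was -0.41 without mouse 22 and 0.35 without mouse 25 of the cabo group. DESeq2 called none of the set.

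Mouse 20 differed from the other tumors of its group along the length of the transcripts. Its Samd9l level was 17.2 CPM against 117 and 70.2, and that of Eif2ak2, the RNA-dependent kinase PKR, 16 against 77.5 and 57.6, while Isg20 was at 61.9 CPM against 22.1 and 21.6. On the log2 scale, the 3 genes of the set with transcripts under 1000 bases (Ifi27l2a, Isg15 and Bst2) were a median of 2.11 above the mean of mice 22 and 24, and the 10 genes with transcripts of at least 4000 bases a median of -1.32 from it. The whole table differed in the same direction, with a median of 0.94 under 1000 bases and -0.84 from 4000 bases. It also followed GC content, from -0.74 below 40% to 0.40 from 55% over all genes, while in the libraries of the other intratibial groups these medians lay between -0.10 and 0.11. This library had in addition the highest sums of muscle markers (4384 CPM), macrophage markers (1591 CPM) and markers of the tumor line (415 CPM) of the intratibial tumors. Their part in its values was not tested.

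**Figure D4:**
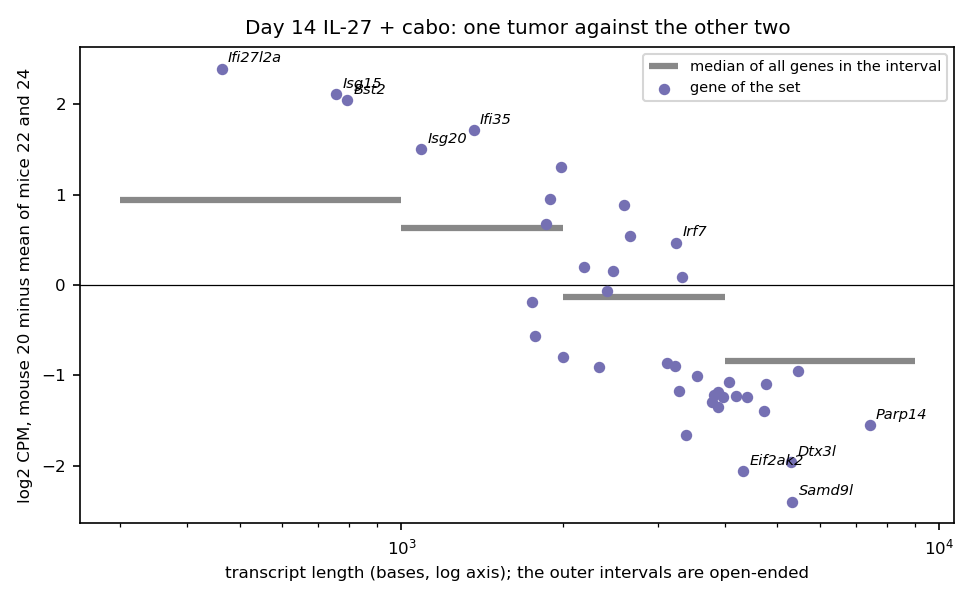
Difference in log2 CPM between the day 14 IL-27+cabo tumor of mouse 20 and the mean of mice 22 and 24 of the same group (vertical axis) against transcript length in bases (horizontal log axis) for the 39 genes, with grey bars for the median of all genes in each length interval. Short transcripts such as Isg15 (2.11) and Bst2 (2.04) lie above 0 and long ones such as Samd9l (-2.40) below.

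Of the day 14 contrasts tested, the widest was between IL-27+cabo and IL-27 alone, which asks what cabozantinib added to IL-27. All 39 genes lay higher in the IL-27+cabo tumors, by a median of 1.68 on the log2 scale, against 53.9% of all genes that lay higher and a median of 0.045 over them. Oasl1 had 11.5, 12.4 and 17.4 CPM with IL-27 and 40.7, 41.8 and 30.2 with IL-27+cabo. Oas3 had 2.36, 1.76 and 5.29 CPM against 9.4, 34.2 and 18.0, and Ifit1 had 14.6, 11.1 and 33.8 against 101, 91.8 and 52.3. Isg15 had 4.94, 2.99 and 13.7 CPM against 91.4, 30.6 and 14.6, groups that were apart by less than 1 CPM. Irf7 had 10.3, 6.45 and 32.9 CPM against 83.9, 80.8 and 45.5. The groups did not overlap for 24 of the 39, against 6.81% of all genes.

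The log2 fold change was 1.43 for Oasl1 (SE 0.289), 2.68 for Oas3 (0.622), 2.02 for Ifit1 (0.496) and 2.65 for Isg15 (0.834), with edgeR adjusted p of 0.907, 0.907, 0.907 and 0.916. No gene of the 18570 tested passed (0%), although 32 of the 39 had an unadjusted p under 0.05, against 3.17% of all genes that were higher at that level. DESeq2 called 6 of the set, all higher, against 0.407% of all genes. Without mouse 20 the median was 1.63 and 33 had an unadjusted p under 0.05. That number was 7 without IL-27 mouse 4, 11 without IL-27 mouse 6 and 15 without mouse 22, with all 39 higher each time and a median from 1.36 to 2.12 over the tumors left out. With the muscle score as a covariate the median was 1.02 and 3 had such a p. Muscle markers summed to between 1523 and 4384 CPM with IL-27+cabo, against 27.1 to 2003 with IL-27, macrophage markers to between 891 and 1591, against 360 to 832, and the 7 endothelial markers to between 76 and 139, against 167 to 228. Markers of plasmacytoid dendritic cells (0.929 to 2.45 against 0.341 to 0.889) and of the tumor line (160 to 415 against 125 to 144) were higher. Apart from muscle these sums did not overlap, none of the lists had a call, and the part of cells other than muscle was not tested. The test of the interaction of IL-27 and cabo over the 4 day 14 groups gave a positive term for all 39 genes (50.7% of all genes), with a median of 1.14, and 9 at an unadjusted p under 0.05, against 1.40% of all genes. None passed, as of all genes (0%), and DESeq2 called none of the set. Without mouse 20 the median was 1.13 and 14 had such a p. Without mouse 8 of the IL-27 group the median was 1.78 and 24 had such a p, and over the other tumors left out this number ranged down to 3, with positive terms for at least 33 genes. The smallest p-values were those of Oasl1, with a term of 0.97 (SE 0.324), Mx2, an MX family gene, with 1.39 (0.477), and Ifi27l2a, with 2.54 (0.957). Each had an edgeR adjusted p of 0.952. These contrasts share tumors, so they are not separate support for each other.

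**Figure D5:**
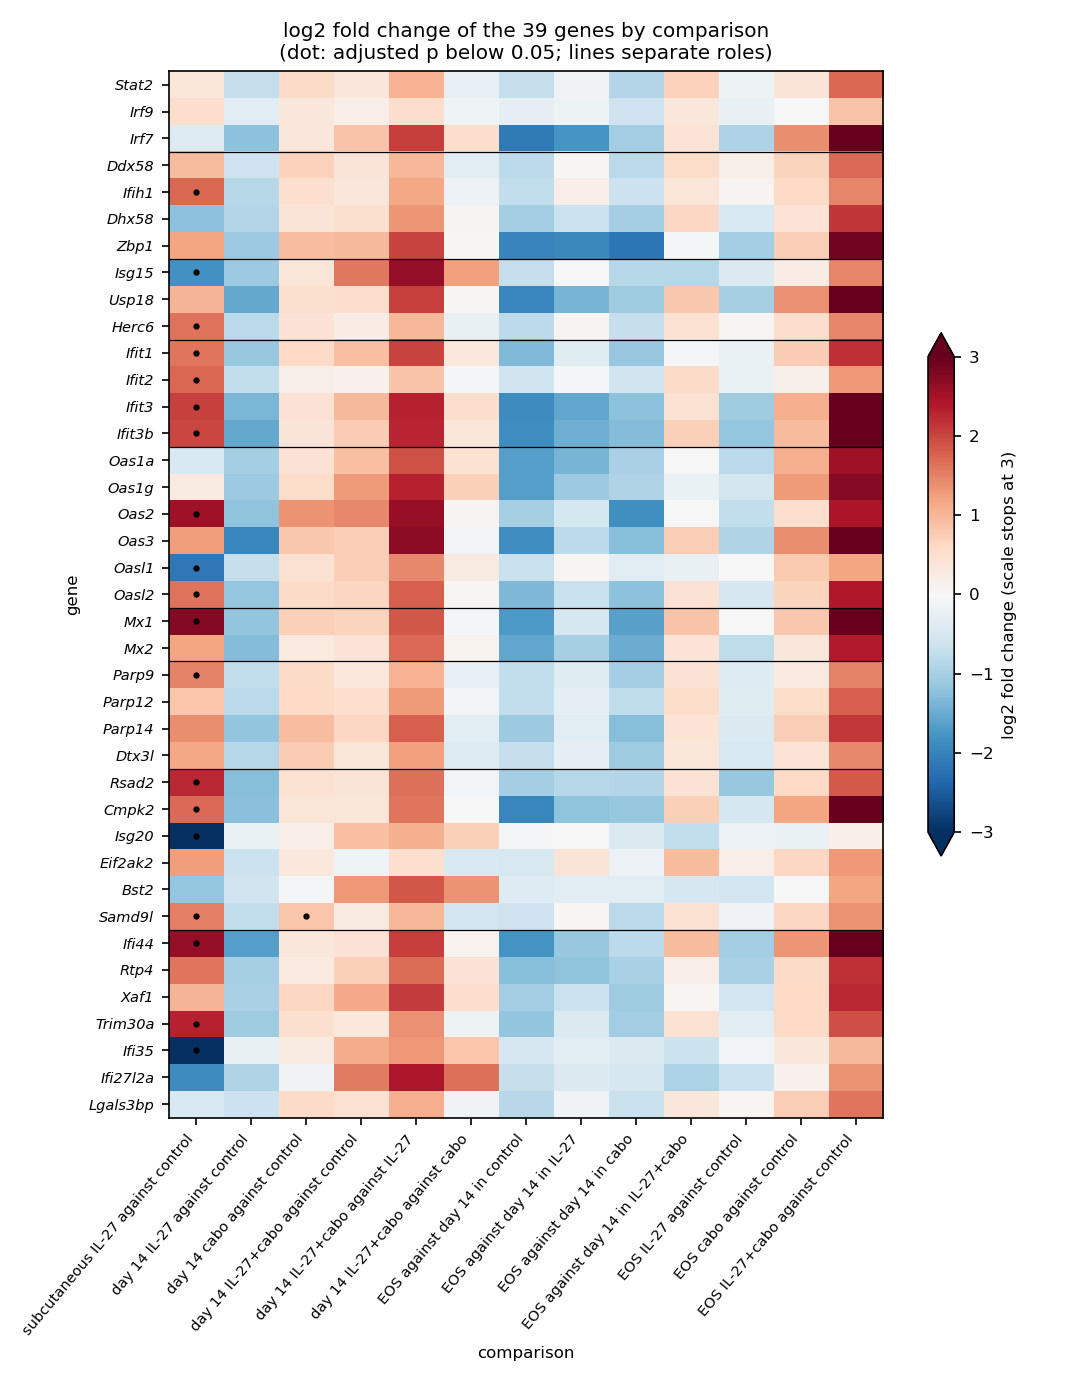
Log2 fold change (color) of each of the 39 genes (vertical axis, grouped by role) in each comparison of 2 groups (horizontal axis), with a dot where the adjusted p was below 0.05. The scale stops at 3 on either side. Day 14 IL-27 against control is lower for all 39 genes, EOS IL-27+cabo against control is higher in all 39, and dots appear in the subcutaneous column (19) and for Samd9l in the day 14 cabo column (1).

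Levels of the set were lower at EOS than on day 14 in the control and cabo groups. In control tumors all 39 genes were lower at EOS (50.4% of all genes), by a median of -1.03 on the log2 scale. Ifit3 had 26.4, 32.0 and 16.7 CPM on day 14 and 5.37 and 8.10 at EOS (mice 13 and 9), and Ifit3b had 11.3, 13.5 and 7.97 against 2.49 and 3.48. Cmpk2, a mitochondrial nucleotide kinase that neighbours Rsad2, had 18.9, 27.9 and 14.3 CPM against 4.51 and 6.03. The groups were without overlap and lower for 31 of the 39, against 17.6% of all genes. By edgeR the log2 fold change was -1.95 for Cmpk2 (SE 0.325, edgeR adjusted p = 0.112), -1.89 for Ifit3 (0.331, adjusted p = 0.123) and -1.87 for Ifit3b (0.309, adjusted p = 0.111). None passed (0.104% of all genes did), 30 had an unadjusted p under 0.05, against 7.22% of all genes that were lower, and DESeq2 called 16, all lower, against 2.87% of all genes. Without EOS control mouse 13 the median was -0.64 and 13 had an unadjusted p under 0.05, and without day 14 control mouse 5 it was -0.81 with 15.

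In the cabo groups all 39 were again lower at EOS (48.7% of all genes), with a median of -0.97. Samd9l had 98.3, 114 and 94.0 CPM on day 14 and 70.2 and 44.6 at EOS (mice 19 and 23), Mx2 had 5.66, 8.35 and 6.89 against 3.33 and 1.52, and Zbp1, the sensor of Z-form nucleic acid, had 19.6, 38.3 and 14.7 against 7.49 and 3.00. For these genes, and for 33 of the 39, the groups did not overlap, against 20.4% of all genes. The change on the log2 scale was -0.81 for Samd9l (SE 0.191, edgeR adjusted p = 0.0976), -1.50 for Mx2 (0.361, adjusted p = 0.102) and -2.18 for Zbp1 (0.53, adjusted p = 0.105). None passed, against 2.09% of all genes. At an unadjusted p under 0.05, 31 were lower, against 9.53% of all genes. DESeq2 called 12, all lower, against 5.79% of all genes. The median was -1.62 without mouse 19 and -0.55 without mouse 23, with 37 lower in the latter fit. Without day 14 mouse 25, 19 had an unadjusted p under 0.05. After correction for GC content and transcript length Samd9l alone passed, against 2.01% of all genes. The 6 T cell markers were lower at EOS too, with sums of 4.19 and 4.39 CPM against 12.2 to 19.6 with cabo, and of 7.60 and 8.66 against 42.8 to 48.0 in control tumors, 1 and 3 of them called lower. With cabo, macrophage markers also summed to less at EOS (612 and 625 CPM against 790 to 1028, 1 of 7 called lower), as did muscle markers (111 and 843 against 1164 to 1776, none called), whereas endothelial markers summed to more (265 and 317 against 137 to 152, 4 of 7 called higher), as did erythroid markers (77.4 and 84.4 against 13.9 to 29.3, 3 of 6 called higher). Sums were lower too for fibroblast and bone (5179 to 5973 against 8831 to 9543, 1 of 6 called lower), neutrophil and marrow myeloid (0.444 to 1.11 against 2.46 to 4.61) and tumor line markers (117 to 125 against 145 to 177). In control tumors NK cell markers (9.76 and 13.3 against 16.6 to 24.5) and B and plasma cell markers (1.44 and 1.57 against 5.64 to 8.56) were lower without overlap, while muscle markers were at 5.40 and 10.8 CPM against 4.79 to 137, macrophage markers at 321 and 521 against 509 to 1163 and endothelial markers at 149 and 244 against 177 to 289, with none called. Their part was not tested.

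Smaller differences were found in the other groups. With IL-27, 32 of the 39 were lower at EOS, with a median of -0.425 (51.1% of all genes were lower). Without day 14 mouse 8 the median was -0.012, with 21 lower and 18 higher, and over the tumors left out it ranged to -0.87 (without mouse 12). Irf7 had 10.3, 6.45 and 32.9 CPM on day 14 and 4.02 and 5.59 at EOS (log2 fold change -1.77, SE 0.685, edgeR adjusted p = 0.818), Zbp1 had 4.10, 1.73 and 11.7 against 1.19 and 1.85 (-1.93, 0.781, adjusted p = 0.818), and for Mx2 it was -0.996 (0.469, adjusted p = 0.818). Irf7 and Mx2 were the 2 genes of the set without overlap, against 11.6% of all genes that were lower so. At an unadjusted p under 0.05, 2 of the set were lower, against 3.08% of all genes. With IL-27+cabo, 29 were higher at EOS (47.0% of all genes) and 10 lower, with a median of 0.42, which was 0.27 with 34 higher without mouse 20, and -0.53 without mouse 28. Eif2ak2 had 16 (mouse 20), 77.5 and 57.6 CPM on day 14 and 80.4 and 115 at EOS, a log2 fold change of 0.95 (SE 0.616) in the only gene of the set that was higher without overlap, against 11.5% of all genes. For Dhx58, the regulator of RNA sensors also called LGP2, it was 0.61 (0.4), and for Usp18, the protease that removes Isg15 and blocks the receptor, 0.80 (0.557). All 3 had an edgeR adjusted p of 0.925, and none of the 39 had an unadjusted p under 0.05. With IL-27, muscle (7.83 to 15.1 CPM against 27.1 to 2003), neutrophil and marrow myeloid (0.836 to 0.870 against 3.00 to 5.10) and NK cell markers (5.41 to 6.26 against 7.45 to 13.3) were lower at EOS without overlap. With IL-27+cabo, muscle (99.7 to 214 against 1523 to 4384), T cell (3.07 to 4.37 against 11.1 to 13.4), B and plasma cell (0.787 to 1.49 against 2.29 to 7.28) and neutrophil and marrow myeloid markers (0.901 to 2.02 against 2.66 to 6.98) were lower and endothelial markers higher (266 to 370 against 76 to 139). None of these lists had a call, and their part was not tested. In neither of these groups did any gene of the table pass (0%), and DESeq2 called none of the set.

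At EOS the fitted levels of all 39 genes were higher in IL-27+cabo than in control tumors, without a call. Usp18 had 1.97 and 2.65 CPM in control tumors (mice 13 and 9) and 13.6 and 31.6 in IL-27+cabo tumors (mice 16 and 28). The Mx1 transcript had 1.72 and 1.98 CPM against 10.1 and 25.8, and Eif2ak2 had 43.5 and 35.2 against 80.4 and 115. Irf7 had 3.25 and 14.8 CPM against 43.9 and 148, and Stat2 had 12.8 and 18.5 against 34.7 and 69.8. For 37 of the 39 genes both IL-27+cabo tumors were above both control tumors, against 21.6% of all genes, Oas2 and Isg20 being the exceptions. The log2 fold change was 3.27 for Usp18 (SE 0.499, edgeR adjusted p = 0.142), 3.26 for Mx1 (0.544, adjusted p = 0.152) and 1.30 for Eif2ak2 (0.228, adjusted p = 0.165). Of all genes 49.6% were higher. The set had a median of 1.93, with 35 at an unadjusted p under 0.05 (7.36% of all genes), but none passed in edgeR's test, as of all 20026 genes (0%). DESeq2 called 25, all higher, against 2.63% of all genes. Without mouse 28 the median was 1.04, with 38 higher and 14 at an unadjusted p under 0.05, and without control mouse 13 it was 1.55 with 15. Within the group the tumors were far apart: mouse 28 had the higher level for each gene named here. The 7 macrophage markers summed to 618 CPM in mouse 16 and 1100 in mouse 28, and to 321 and 521 in the controls. The 12 muscle markers summed to 214 and 99.7 CPM against 10.8 and 5.40. Endothelial markers (266 to 370 against 149 to 244) and those of plasmacytoid dendritic cells (1.08 to 1.25 against 0.413 to 0.701) were higher, and T cell (3.07 to 4.37 against 7.60 to 8.66) and erythroid markers (57.3 to 82.7 against 83.9 to 479) lower, without overlap. None of these lists had a call, and their part was not tested.

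The single agents gave smaller differences at EOS. With cabo, 38 of the 39 were higher than in control tumors (48.9% of all genes), with a median of 0.60. Usp18 had 7.99 and 3.96 CPM (mice 19 and 23), a log2 fold change of 1.37 (SE 0.47, edgeR adjusted p = 0.499). Eif2ak2 had 71.1 and 50.2, a change of 0.62 (0.226, adjusted p = 0.519), and Cmpk2 had 15.5 and 8.31, a change of 1.17 (0.607, adjusted p = 0.63). At an unadjusted p under 0.05, 2 were higher, against 4.54% of all genes, and 9 were higher without overlap, against 21.8%. The median was 0.11 without mouse 19, 0.21 without control mouse 13, 1.00 without mouse 23 and 1.17 without control mouse 9. Muscle markers summed to between 111 and 843 CPM in the cabo tumors, against 5.40 to 10.8 in controls, and macrophage markers to between 612 and 625, against 321 to 521, and endothelial markers to between 265 and 317, against 149 to 244. T cell markers (4.19 to 4.39 against 7.60 to 8.66) and neutrophil and marrow myeloid markers (0.444 to 1.11 against 1.53 to 7.4) were lower. None of these sums overlapped, none of the lists had a call, and their part was not tested. With IL-27, 34 were lower (52.8% of all genes), with a median of -0.45, which was 0.08 without control mouse 9, -0.14 without mouse 10, -0.80 without control mouse 13 and -0.84 without mouse 12, and 6 were lower without overlap, against 16.3%. The changes of Usp18 (-1.001, SE 0.478), Ifit3b (-1.17, 0.661) and Ifit3 (-1.07, 0.676) each had an edgeR adjusted p of 1, and none of the set had an unadjusted p under 0.05. With IL-27, NK cell (5.41 to 6.26 CPM against 9.76 to 13.3), neutrophil and marrow myeloid (0.836 to 0.870 against 1.53 to 7.4) and erythroid markers (71.5 to 82.2 against 83.9 to 479) were lower and B and plasma cell markers higher (2.59 to 3.30 against 1.44 to 1.57), with no overlap and no call, and their part was not tested. None passed in either comparison (0% of all genes), and DESeq2 called none of the set. With 2 tumors a group, an exact two-sided permutation test of one value cannot give a p below 0.333.

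The change with each treatment was also compared between EOS and day 14. For IL-27+cabo against control it was greater at EOS for 34 of the 39 genes (48.3% of all genes), with a median difference of 1.41 in log2 fold change, and 16 had an unadjusted p under 0.05, against 3.88% of all genes. Mx2 differed by 2.00 (SE 0.628, edgeR adjusted p = 0.429), Usp18 by 2.78 (0.917, adjusted p = 0.434) and Mx1 by 2.60 (0.887, adjusted p = 0.452). Without mouse 20 the median was 1.16, with 39 genes greater and 11 at such a p. Without mouse 28 it was 0.58 with 1, without EOS control mouse 13 it was 1.10 with 5, and without day 14 control mouse 5 it was 1.26 with 7. For IL-27 alone the median difference was 0.56, from 0.18 without EOS control mouse 13 to 1.10 without EOS control mouse 9. For cabo alone it was 0.08, from -0.445 without mouse 19 to 0.66 without EOS control mouse 9, with no gene of the set at an unadjusted p under 0.05 in either. None passed in these 3 tests by edgeR or DESeq2, against 0.0788% of all genes for IL-27+cabo, 0.0788% for cabo and 0% for IL-27.

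The rest of the interferon pathway was examined from lists of genes of the receptor and its kinases, the sensing adaptors, further transcription factors, the inhibitors and interferon gamma. In the intratibial comparisons of treatments none of these genes passed. In subcutaneous tumors with IL-27 against control, 2 pathway genes were called higher and 8 lower, against 3.52% and 16.5% of all genes, by list 0 higher and 1 lower of 4 for the receptor and its kinases, 1 and 2 of 11 for the sensing adaptors, 0 and 2 of 6 for the other transcription factors, 0 and 2 of 8 for the inhibitors, and 1 and 1 of 3 for interferon gamma and its receptor. Ifng, encoding interferon gamma, was at 1.19 CPM against 0.0272 in controls, and Aim2, a DNA sensor, at 22.3 against 5.84. Tyk2, the receptor kinase, fell from 42.5 to 8.61 CPM, Irf3 from 19.97 to 5.35, Irf5 from 27.1 to 6.57, and Mavs, the adaptor of the RNA sensors, from 54.6 to 19.03. Ticam1, the adaptor of Tlr3, fell from 31.3 to 3.72, and Socs3, Ifngr2 and Trex1 were also lower. Of these 8 transcripts, those of Tyk2, Irf3, Irf5, Ticam1, Socs3 and Trex1 had a GC content between 55.7% and 58.7%, the interval in which the median log2 fold change of all genes was -2.33, beside -2.30 for Tyk2, -1.9 for Irf3, -2.04 for Irf5, -3.07 for Ticam1, -1.94 for Socs3 and -8.90 for Trex1, which was near 0 CPM with IL-27. These genes were also in the fit with the GC content and length offset, but their values there are not reported here. In the cabo groups between day 14 and EOS, Socs3 (from 66.4 to 39.6 CPM), Tmem173, encoding the DNA-sensing adaptor STING (98.8 to 71.2), and Irf5 (27.2 to 16.2) fell, with edgeR adjusted p of 0.0198, 0.0375 and 0.0469. Of all 19144 genes tested there, 219 were called lower and 400 in either direction (2.09%). Values of these 3 genes under other settings are not reported here.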

How the data were processed

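RNA sequencing was made by the authors from tumor sections, and the table that the authors deposited holds whole-number counts for each Ensembl identifier, 1 column per tumor. The submitters' processing notes name FastQC, HISAT2, StringTie and DESeq2 and the build GRCh38, although the identifiers are of mouse. The counting program and the versions are not given in the sources used here. Between 30.45% and 35.48% of low counts in a library were multiples of 4. Genes were named through GENCODE M21, which held 55141 of the 55401 identifiers.

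The members and lists were chosen with earlier results of these data known. Counts were filtered by filterByExpr, scaled by TMM and tested with edgeR 4.0.16 (quasi-likelihood F test, two-sided, Benjamini-Hochberg over all genes tested) in R 4.3.3, and adjusted p under 0.05 was called. Subcutaneous and intratibial tumors were fitted apart, each comparison on its own groups, EOS comparisons on the 4 EOS groups, and interactions on the groups involved. Log2 CPM used a prior count of 2. Alternatives were DESeq2 1.42.0, RLE scaling, no filter, the limits of the study (unadjusted p under 0.05 with 1.5-fold in subcutaneous tumors or 1.5 on the log2 scale in intratibial tumors), a GC content and length offset (splines with 5 degrees of freedom), the replicate block, a muscle score covariate, all intratibial groups in one fit, and leaving out each tumor. Named genes were those called, at most 6 in each direction by smallest p, or, where fewer than 3 were called, the 3 with the smallest p. The tests were tried on simulated counts. Marker genes were tested in the same fits, and marker sums and promoters were described without a test. Values of some genes on the pathway and marker lists are not reported here.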

Additional observations from a re-analysis of the deposited data

Results flagged for a closer look

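The change with IL-27 differed between subcutaneous and day 14 intratibial tumors for 25 of the 39 genes in a test of the difference itself, by edgeR with an adjusted p under 0.05, in a comparison added after seeing the data. Of all genes, 5.51% were called with a higher and 18.0% with a lower change in subcutaneous tumors, against 23 and 2 of the 39. Values are the log2 change in subcutaneous tumors minus that in day 14 tumors. The difference was 2.75 for Ifit1, 2.46 for Ifit2, 3.43 for Ifit3 and 3.56 for Ifit3b among the IFIT genes. It was 3.77 for Oas2, 3.24 for Oas3 and 2.82 for Oasl2 among the OAS genes, and 3.96 for Mx1 and 2.48 for Mx2. Among the sensors it was 2.58 for Ifih1 and 1.60 for Ddx58. In the group of Parp9 it was 2.23 for Parp9, 2.05 for Dtx3l, 1.65 for Parp12 and 2.58 for Parp14. Of the other effectors, Rsad2 differed by 3.56, Cmpk2 by 2.96, Samd9l by 2.27 and Eif2ak2 by 1.92. Herc6, of the Isg15 system, differed by 2.44. Ifi44 differed by 4.33, Trim30a by 3.41 and Rtp4 by 2.63. The lower ones were Isg20 at -3.61 and Ifi35 at -2.75. After correction for GC content and transcript length 15 were called, against 10.1% of all genes, Isg20 (-1.17, adjusted p = 0.0843) and Samd9l (1.02, adjusted p = 0.105) being among those lost, and the median difference of the set was 1.64 in place of 2.27.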

How the results depend on the processing

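Leaving out the tests that drop a tumor, 84 counts of called genes stayed within 1.5 times their value and 22 did not. Most of those that stayed were counts of 0 that remained 0, which says nothing of how stable a call is. Only the subcutaneous comparison, cabo on day 14 and the difference between sites had a call in the main fit. In the subcutaneous comparison (19 called) the count was 11 without a filter (10.8% of all genes) and 5 with the GC content and length offset (8.18%). The replicate block gave 23 (21.9%), and 13 with the offset (13.3%). The subcutaneous tumors share replicate numbers, but same-numbered tumors did not deviate together (r = 0.0313 across genes). The other groups share no replicate numbers, so no block was fitted there. DESeq2 called 1 gene for IL-27 on day 14 (0.0104% of all genes), 9 for cabo on day 14 (4.55%) and 6 for IL-27+cabo against IL-27 (0.407%). It called 16 and 12 for EOS against day 14 in control (2.87%) and cabo (5.79%), and 25 for IL-27+cabo at EOS (2.63%). By the limits of the study, with the share of all genes in parentheses, the counts were 4 for IL-27 on day 14 (0.540%), 0 for cabo on day 14 (2.92%), 22 for IL-27+cabo against IL-27 (2.36%), 5 for the interaction (1.30%), 12, 2 and 3 for EOS against day 14 in control (3.90%), IL-27 (1.69%) and cabo (3.06%), 23 for IL-27+cabo at EOS (3.6%) and 12 for its change from day 14 (5.61%). The 1 gene for cabo on day 14 was 0 without a filter (0.347% of all genes), with all intratibial groups in one fit (0.186%) and with the muscle score (0%). The offset gave 1 for EOS against day 14 in cabo (2.01% of all genes) and 15 in place of 25 for the difference between sites (10.1%). Without single tumors the counts ranged from 3 to 19 in the subcutaneous comparison, from 0 to 2 for cabo on day 14, from 0 to 7 for EOS against day 14 in cabo and from 13 to 26 for the difference between sites. Some directions turned. With the muscle score as a covariate, the log2 fold change was -0.16 for Oasl1 in IL-27+cabo against control, and -0.188 for Ifi27l2a, -0.253 for Bst2 and -0.591 for Isg15 in IL-27+cabo against cabo. For Ifi44, the change with cabo at EOS minus that on day 14 was -0.139 without mouse 19 and ranged up to 1.9 over the tumors left out. Apart from what the settings' own construction shows, the cause was not tested. Groups held 2 or 3 tumors, and the smallest count of a member in a tumor was 24.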
